A study of Mus musculus with 6 samples.

Results

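The 10 genes described here, Ankrd66, Ermap, Rnf180, Stx11, Dipk2a, E330034G19Rik, E130119H09Rik, Lrrtm2, Cabp5 and Myo7b, are little studied in the lens and were chosen by their array signals, which were much lower in transgenic than in wild-type mouse lenses. They are 10 of 18193 genes with a probe set on the arrays, and 17 of the 45037 probe sets analysed. Because the choice was made on the transgenic against wild-type difference, that difference is given for these genes as a description, with no test. RNA came from whole lenses of Balb/c mice aged 2 days, and each sample was read on its own Affymetrix array, called T1 to T3 for the 3 transgenic and W1 to W3 for the 3 wild-type samples. The labels do not name the transgene, its promoter or the cells that carry it. The design text speaks of 12 lenses for each genotype and 3 replicates, and nothing states that replicates came from separate animals, so errors and p-values cover no more than the variation among these 6 arrays, some of which may be technical.

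The lens is made of an outer layer of epithelial cells and a mass of fiber cells, which elongate, fill with crystallin and lose their organelles as they mature. Most of the 10 genes are known from other tissues. Stx11 encodes a syntaxin, a SNARE protein that brings vesicle and target membranes together, best known from granule release by lymphocytes. Rnf180 encodes a RING finger ubiquitin ligase anchored in the membrane of the endoplasmic reticulum. Myo7b encodes a motor protein of the brush border of intestine and kidney. Lrrtm2 encodes a synaptic adhesion protein that binds neurexins, and Cabp5 a calmodulin-like calcium-binding protein of retinal neurons. Ermap encodes a butyrophilin-like protein of the red cell surface, which carries a blood group antigen in humans. Dipk2a encodes a protein of the secretory pathway with a divergent kinase domain. E330034G19Rik is also named Zpac, a proteasome assembly chaperone described in mouse germ cells and zygotes, and E130119H09Rik is annotated as a long noncoding RNA in RefSeq. Ankrd66 is named for its ankyrin repeats, a fold used in protein binding.

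All values are log2 signals after quantile normalization, and signals of different probe sets are not compared as amounts of RNA. The labelled tissue was borne out by its markers: 13 measured lens fiber markers had a summed linear signal of 162766 to 174617 in transgenic and 187586 to 191205 in wild-type samples. Of these 13, 3 fell, 0 rose and 10 did not pass (limma over all probe sets), with a median difference of -0.10. Several of the 10 had signals near the top of the scale, with equal values after normalization. Cryaa had 14.54 in T1, T2 and T3, and Crygs had 14.07 in W1, W2 and W3. A fall may be compressed there, so neither the median nor the summed signal shows how far fiber RNA changed. Dnase2b, the gene of the nuclease that breaks down DNA in maturing fiber cells, fell by 2.22 ± 0.21 (SE; limma adjusted p = 0.00128). The beaded filament gene Bfsp1 fell by 1.66 ± 0.11 (SE; limma adjusted p = 0.000279). The gamma crystallin gene Crygf, whose probe set may also read close paralogs, fell by 0.73 ± 0.10 (SE; limma adjusted p = 0.00890). All 3 calls held with any 1 array left out. The part of fiber cell RNA in the falls of the 10 genes was not tested. Foxe3, the forkhead factor gene of lens epithelial cells, differed most of all genes, with 13.33, 13.42 and 13.39 in transgenic against 8.54, 8.86 and 8.82 in wild-type lenses. It was the only call among 9 measured lens epithelium markers. The other 8 did not pass (limma), and the 9 had a median difference of -0.014, with 5 below 0. T3 stood apart from the other arrays in transcripts of skin and muscle. The summed signal of 12 skin markers was 2028, 1852 and 30614 in T1, T2 and T3, against 1849 to 2957 in wild-type samples, and that of 12 skeletal muscle markers 565, 519 and 9539 against 554 to 775. Over all probe sets, 661 had higher signals in transgenic lenses and 995 had lower ones (limma, adjusted p under 0.05), 1.47% and 2.21% of those tested. With arrays shifted to a common median in place of quantile normalization, 470 were higher and 1297 lower. The median difference of all genes, transgenic minus wild type, was 0.011. The lens is a mixed tissue, so fewer cells of a type and less RNA per cell cannot be told apart in any value below.

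RefSeq promoter windows (GRCm38.p6), which run from 250 bases before to 50 after a transcript's start, were found for 7 of the 10 genes, in 10 windows. Ankrd66, Lrrtm2 and Myo7b had no entry. The 4 windows below differ in GC content, from 44.7% for Cabp5 to 71.0% for Stx11. Those of E130119H09Rik, Cabp5 and Ermap hold a match to a motif marked here, and that of Stx11 holds none. Capitals mark matches on either strand to the heat shock element core GAANNTTC or TTCNNGAA, the Maf core TGCTGA, the forkhead core TGTTTA and the AP-1 site TGANTCA. Each sequence is written 5′ to 3′ on the gene's strand.
E130119H09Rik, chr13:53915699-53915998, minus strand: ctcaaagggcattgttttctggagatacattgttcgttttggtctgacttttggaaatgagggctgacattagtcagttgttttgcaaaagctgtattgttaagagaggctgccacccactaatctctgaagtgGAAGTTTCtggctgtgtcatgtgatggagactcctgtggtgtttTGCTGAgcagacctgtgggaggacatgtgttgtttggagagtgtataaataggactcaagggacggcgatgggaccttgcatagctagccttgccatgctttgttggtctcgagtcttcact
Cabp5, chr7:13397905-13398204, plus strand: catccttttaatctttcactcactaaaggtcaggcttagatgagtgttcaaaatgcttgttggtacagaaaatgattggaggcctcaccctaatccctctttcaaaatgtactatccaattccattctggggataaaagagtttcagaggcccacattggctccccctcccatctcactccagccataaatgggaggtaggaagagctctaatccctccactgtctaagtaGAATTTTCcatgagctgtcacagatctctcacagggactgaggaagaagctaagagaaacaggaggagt
Ermap, chr4:119189946-119190245, minus strand: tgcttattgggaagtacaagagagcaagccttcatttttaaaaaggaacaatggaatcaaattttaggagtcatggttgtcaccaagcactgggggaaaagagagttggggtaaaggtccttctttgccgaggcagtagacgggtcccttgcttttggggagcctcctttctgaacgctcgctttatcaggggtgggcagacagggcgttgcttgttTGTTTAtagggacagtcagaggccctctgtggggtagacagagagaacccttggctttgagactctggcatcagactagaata
Stx11, chr10:12964210-12964509, minus strand: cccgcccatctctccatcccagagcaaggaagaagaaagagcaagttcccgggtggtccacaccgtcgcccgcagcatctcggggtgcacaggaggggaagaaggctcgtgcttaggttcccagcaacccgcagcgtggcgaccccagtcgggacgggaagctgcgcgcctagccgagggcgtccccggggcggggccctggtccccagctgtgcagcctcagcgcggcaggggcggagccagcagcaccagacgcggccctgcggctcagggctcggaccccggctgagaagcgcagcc

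The windows of E130119H09Rik and Cabp5 each held the core GAANNTTC, which 7.86% of all 32851 windows hold, and no window of the 7 genes held TTCNNGAA, which 8.52% hold. The Maf core stood in the windows of E130119H09Rik and E330034G19Rik, against 19.5% of all windows. The forkhead core was found for Ermap alone of the 7, against 13.4% of all windows, and the AP-1 site in 1 of the 2 windows of Rnf180, against 7.81%. The motifs overlap in no window shown. By GC content the 7 genes were spread widely, with 76.7% in the window of Dipk2a, 71.0% in that of Stx11, 48.7% in that of Ermap, 46.3% in that of E130119H09Rik and 44.7% in that of Cabp5, around a median of 52.7% over all windows. These matches describe letters in the windows and do not show binding.

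Of the 17 probe sets of the 10 genes, 16 were lower in every transgenic array than in any wild-type array. The same held for 13.4% of all probe sets, and since the genes were chosen for this difference nothing is read from the count. The main probe sets, those named with the choice of genes or else the brightest of the gene, had differences of -3.58 to -2.01, with a median of -2.67. The gap between the lowest wild-type and the highest transgenic array ran from 1.73 to 3.21 log2 units. They took ranks 1, 2, 3, 4, 5, 10, 12, 13, 23 and 30 among all probe sets ordered by the size of the fall. Among other genes, 17 probe sets of 12 genes fell at least as far as the smallest fall of the 10, led by Tecrl (-2.77), Hspb1 (-2.55), Prdm16 (-2.53), Sh3bgr (-2.52), Arrdc4 (-2.40) and Nupr1 (-2.35). Fabp5, at -2.001, and Map3k5, at -1.99, lay just beyond the smallest, Dipk2a at -2.006.

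**Figure D1:**
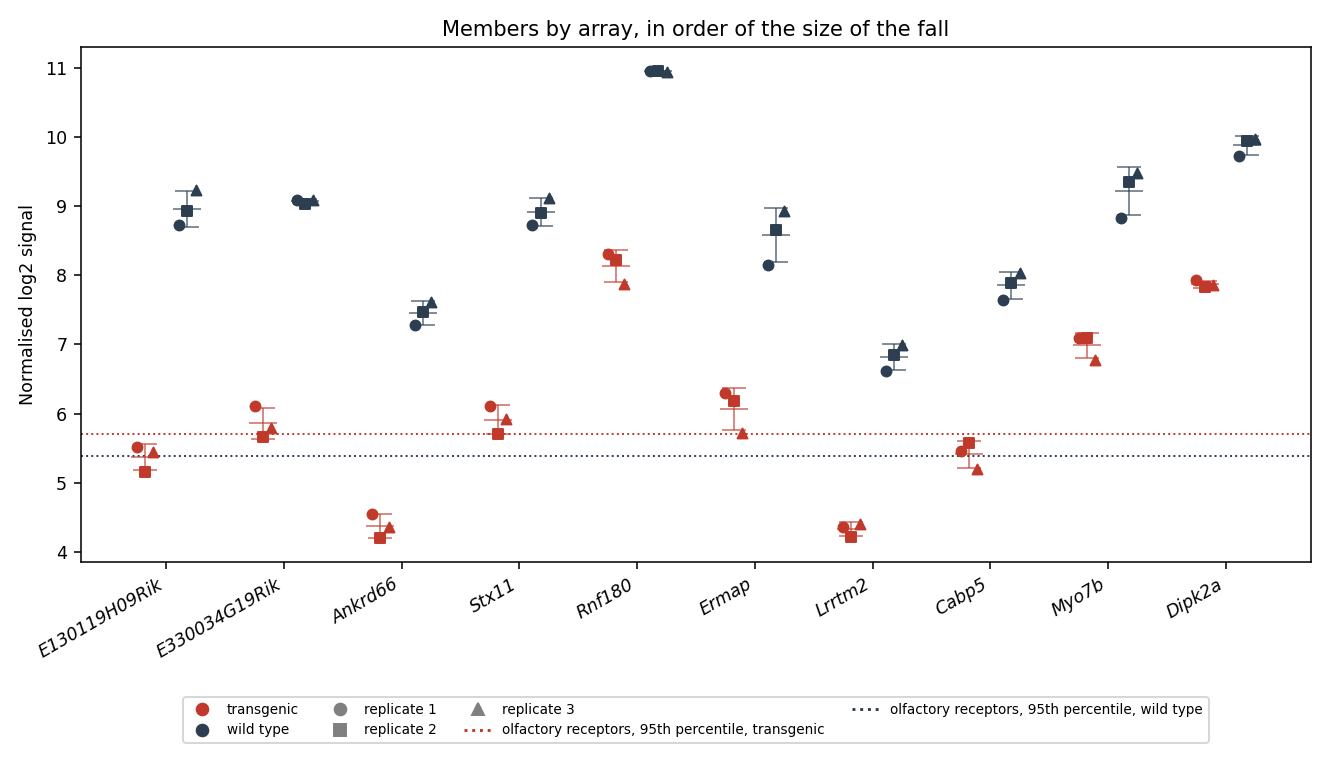
Normalised log2 signal of the main probe set of each of the 10 genes, with transgenic arrays in red on the left and wild-type arrays in dark blue on the right of each pair, bars for the mean and SD of 3 arrays, and genes in order of the size of the fall. No gene's groups overlap, and the transgenic means of E130119H09Rik, Ankrd66, Lrrtm2 and Cabp5 lie under the red dotted line, the 95th percentile of olfactory receptor probe sets in transgenic samples.

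The RIKEN transcripts had the largest falls of all probe sets. The long noncoding RNA E130119H09Rik had 5.51, 5.16 and 5.45 in T1, T2 and T3, against 8.72, 8.92 and 9.23 in W1, W2 and W3. All 3 transgenic arrays were low, and W1 was the lowest of the wild-type arrays. Its difference was -3.58 ± 0.15 (limma's SE, n = 3 each), and no fold is given because its transgenic mean lay within the range of background described below for Ankrd66. The chaperone gene E330034G19Rik had 6.11, 5.67 and 5.80 in transgenic against 9.09, 9.03 and 9.08 in wild-type lenses. The wild-type arrays differed by little, with an SD of 0.031, and the transgenic arrays by more, with an SD of 0.23. Its difference was -3.21 ± 0.12 (SE), a wild-type level 9.24-fold that of transgenic lenses. The transgenic mean, 5.86, lay just above that range of background and T2 within it, which limits this fold too. Neither gene has a second probe set here, so neither fall could be set beside another measurement.

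Ankrd66 had 4.55, 4.21 and 4.36 in transgenic against 7.28, 7.47 and 7.62 in wild-type lenses, a difference of -3.08 ± 0.12 (SE). The spread was alike in both groups, with SDs of 0.17 and 0.17. Its transgenic values lay among those of probe sets for olfactory receptors, genes of the nose used here as a gauge of probe sets without expression. The 44 olfactory receptor probe sets had a median of 4.14 and a 95th percentile of 5.71 in transgenic samples, and 4.12 and 5.39 in wild-type samples. The transgenic means of 4 of the 10 genes, Ankrd66, E130119H09Rik, Lrrtm2 and Cabp5, were at or below that 95th percentile, and no wild-type mean was. Signals of this size cannot be told from background, which limits how far a fold can be read for these 4 genes.

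Of the genes for ubiquitin ligation and vesicle fusion, Rnf180 had 8.31, 8.22 and 7.87 in transgenic against 10.96, 10.95 and 10.94 in wild-type lenses. T3 was the lowest transgenic array, and the wild-type arrays were nearly equal, with an SD of 0.0063. Its difference was -2.82 ± 0.12 (SE), or 7.04-fold, and -2.69 without T3. A second probe set of Rnf180 had 4.57, 4.74 and 5.18 against 6.10, 6.47 and 6.48, a difference of -1.52 ± 0.17 (SE). On that probe set T3 was the highest transgenic array, so the order of the transgenic arrays turned between the probe sets while the groups stayed apart. The transgenic mean of that probe set, 4.83, lay under the olfactory receptor gauge, which limits what that order and the smaller difference show.

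The syntaxin gene Stx11 had 6.11, 5.70 and 5.92 in transgenic against 8.73, 8.89 and 9.12 in wild-type lenses. Its difference was -3.002 ± 0.14 (SE), or 8.01-fold. The transgenic mean, 5.91, lay just above the olfactory receptor gauge and T2 just under it, which limits this fold. Its second probe set had 5.41, 5.06 and 4.999 against 7.11, 7.66 and 8.001, a difference of -2.43 ± 0.21 (SE). Both probe sets of Stx11 therefore had groups that did not overlap, and on both W1 was the lowest wild-type array. The transgenic mean of the second, 5.16, lay under the olfactory receptor gauge.

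Dipk2a, the gene of a secretory pathway protein, is the one member whose probe sets disagreed. Its main probe set had 7.93, 7.84 and 7.85 in transgenic against 9.72, 9.95 and 9.97 in wild-type lenses, a difference of -2.01 ± 0.10 (SE). A second had 7.54, 7.30 and 7.19 against 8.74, 8.99 and 8.83, a difference of -1.51 ± 0.12 (SE). The third, a dim probe set, had 4.86, 4.70 and 5.15 against 4.30, 4.37 and 4.39 and was higher in transgenic lenses, by 0.55 ± 0.12 (SE), also with groups that did not overlap. Both of its means lay under the olfactory receptor gauge, and which transcript it reads is not given in the sources used here.

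Among the genes known from neurons, Lrrtm2 had 4.36, 4.22 and 4.41 in transgenic against 6.62, 6.85 and 6.99 in wild-type lenses, a difference of -2.49 ± 0.11 (SE). Its other probe sets differed by -1.48 ± 0.15 and -0.87 ± 0.12 (SE). They were dimmer, with wild-type means of 5.35 and 4.39, and both of these lay under the olfactory receptor gauge. Cabp5 had 5.46, 5.57 and 5.20 in transgenic against 7.64, 7.89 and 8.03 in wild-type lenses, a difference of -2.44 ± 0.13 (SE). Its second probe set had 4.19, 4.95 and 4.97 against 6.35, 6.56 and 6.87, a difference of -1.89 ± 0.22 (SE), with T1 the lowest array there and T3 the lowest on the main probe set. The transgenic mean of that second probe set, 4.70, also lay under the olfactory receptor gauge.

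The red cell and brush border genes had a single probe set each. Ermap had 6.29, 6.18 and 5.72 in transgenic against 8.15, 8.66 and 8.93 in wild-type lenses. T3 and W1 were the lowest arrays of their groups, and its SDs, 0.30 and 0.39, were the largest of the 10 main probe sets. Its difference was -2.52 ± 0.21 (SE), and -2.35 without T3. Myo7b had 7.09, 7.09 and 6.78 in transgenic against 8.82, 9.34 and 9.47 in wild-type lenses, a difference of -2.23 ± 0.17 (SE), or 4.68-fold. W1 was again low, so the same arrays were low for Ermap and Myo7b.

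**Figure D2:**
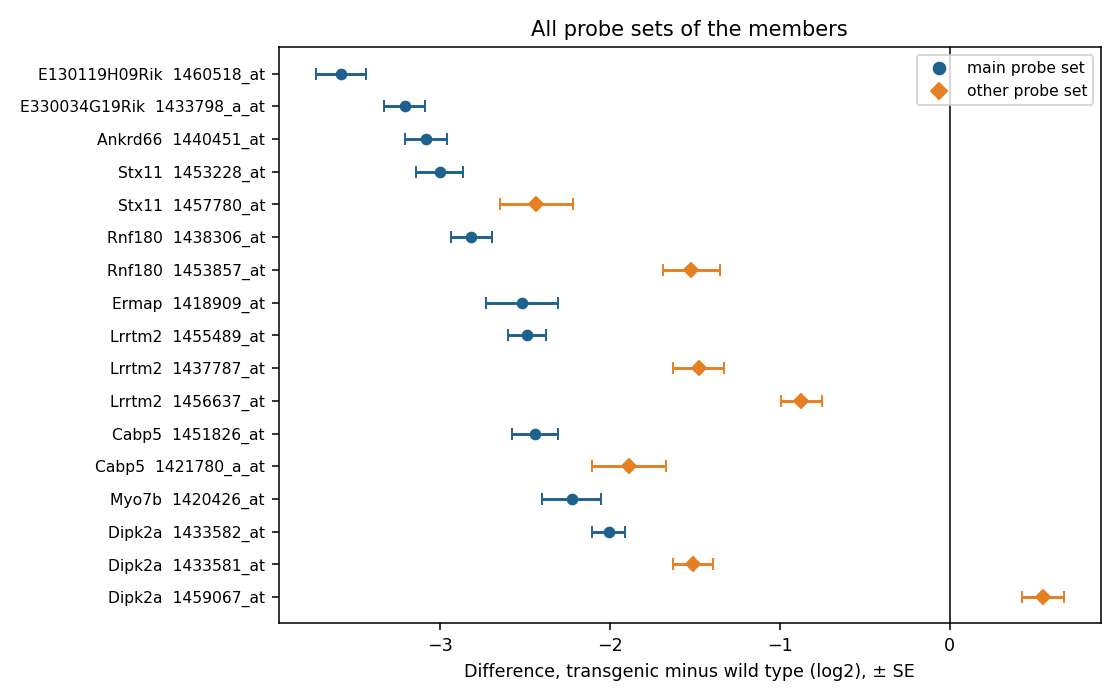
Difference in log2 signal, transgenic minus wild type, of all 17 probe sets of the 10 genes, with limma's SE, blue circles for main and orange diamonds for other probe sets. All lie below 0 apart from a dim probe set of Dipk2a at 0.55, and each of the other probe sets shows a smaller fall than the main probe set of its gene. Main probe sets were named with the choice of genes or are the brightest of their gene, so nothing is read from that order. Of the 7 other probe sets, 6 had transgenic means at or below the olfactory receptor gauge.

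Within the groups, W1 was the lowest wild-type array for 8 of the 10 main probe sets, against 39.8% of all probe sets and 56.6% of those called lower, and on the values as deposited it was also the lowest for 8. T1 was the lowest transgenic array for 0 of the 10, against 32.0% of all probe sets and 21.7% of those called lower. T2 was the lowest for 6 and T3 for 4, against 36.3% and 42.0% of those called lower. These counts are of 10 genes and were not tested. The median of the 10 main probe sets was 6.11, 5.68 and 5.76 in T1, T2 and T3, against 8.72, 8.91 and 9.10 in W1, W2 and W3. Without T3, which held the skin and muscle transcripts, the median difference was -2.61, and the largest shift of a single gene was 0.17.

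Markers of the cell types that these genes are known from are given beside them. Of 10 measured markers of retinal bipolar cells, the cells in which Cabp5 was described, 0 passed limma's test over all probe sets and 0 had an unadjusted p under 0.05, with a median difference of -0.072. Their summed signal was 1038 to 1204 in transgenic and 1062 to 1179 in wild-type samples. These values are for the brightest probe set of each gene, and 4 of the 10 lay at or below the olfactory receptor gauge in both groups. Other probe sets of the bipolar marker Prkca differed by -0.62 and -0.36 and did not pass (limma adjusted p of 0.0817 and 0.0985). The transgenic mean of the latter, 5.23, lay under the gauge. Another probe set of Isl1 differed by -0.12. Markers of neural retina as a whole were lower, with 15 of 16 below 0 and a median of -0.38. At an unadjusted p under 0.05 (limma), 6 of the 16 were lower and 0 higher. The share of all genes under that unadjusted cut is not given here. No shift of a list is therefore read from this count or from the unadjusted counts below. The retina marker Elavl4, the gene of a neuronal RNA-binding protein, fell by 0.72 ± 0.10 (SE; limma adjusted p = 0.0107), a call lost without W2 (0.0576). Other probe sets of Elavl4 differed by -0.52 and -0.82 and also passed (limma adjusted p of 0.0401 and 0.0392). Their transgenic means, 5.25 and 5.01, lay under the olfactory receptor gauge. The summed retina signal was 2905, 4665 and 3585 in T1 to T3, against 5877, 5002 and 3726 in W1 to W3, and the groups overlapped. Among 10 neuron and synapse markers 9 were below 0, with a median of -0.46. Of the 10, 5 were lower and 0 higher at an unadjusted p under 0.05 (limma). The neuronal splicing factor gene Rbfox3 fell by 1.02 ± 0.15 (SE; limma adjusted p = 0.00978), a call lost without W2 or W3 (up to 0.0513). Other probe sets of Rbfox3 differed by -0.21 and -0.36 and did not pass. The part of retinal or neuronal RNA in the falls of Cabp5 and Lrrtm2 was not tested.

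Of 8 erythroid markers, set beside Ermap, 0 passed and 3 had an unadjusted p under 0.05 (limma), 2 of them higher. Their summed signal was 295 to 318 in transgenic and 298 to 308 in wild-type samples. The alpha globin gene Hba-a2 had a difference of -0.37 and the red cell membrane gene Epb42 one of 0.36, and neither passed. Of 13 erythroid markers listed 8 were measured, and 5 of these, Hba-a2 and Epb42 among them, lay at or below the olfactory receptor gauge in both groups. The list therefore shows little about red cell RNA. Of 12 leukocyte markers, set beside Stx11, the T cell receptor subunit gene Cd3e rose by 0.49 ± 0.09 (SE; limma adjusted p = 0.0302), a call lost with any 1 array left out (up to 0.0993), and 11 did not pass. Of the 12, 6 lay at or below the gauge in both groups. The 10 brush border markers, set beside Myo7b, all lay at or below the olfactory receptor gauge in both groups, and of these the intestinal phosphatase gene Alpi passed, with 4.17 in transgenic against 3.62 in wild-type lenses (limma adjusted p = 0.0271), a call lost without T1, T2, W1, W2 or W3 (up to 0.110). Of 6 vascular markers the receptor gene Tek passed upward, by 0.49 (limma adjusted p = 0.0473), a call lost without any 1 array other than T3 (up to 0.149). For the skin and muscle markers, which were high in T3, 0 of 12 passed in either list, and 0 had an unadjusted p under 0.05.

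The comparison of each gene with its family asks whether relatives of the same name moved with it. Among all genes, taken by their brightest probe set, 1.85% were higher and 2.56% lower in transgenic lenses. Of 42 other ankyrin repeat domain genes, 1 rose and 3 fell, with a median of -0.0026. Ankrd46 fell by 0.52 ± 0.08, Ankrd28 by 0.58 ± 0.09 and Ankrd29 by 0.54 ± 0.09, and Ankrd50, whose product takes part in endosome recycling, rose by 0.53 ± 0.08 (SE; limma adjusted p from 0.0145 to 0.0167). Second probe sets of Ankrd28 and Ankrd29 differed by -0.52 and -0.55. Both probe sets of Ankrd29 lay under the olfactory receptor gauge in both groups, with main means of 4.20 in transgenic and 4.74 in wild-type lenses. Each of the 4 calls was lost without T2, W2 or W3, and that of Ankrd29 without T1 as well (up to 0.0738). Of 77 other RING finger genes, 3 fell and 0 rose, with 6 below and 2 above 0 at an unadjusted p under 0.05. The splicing-related gene Rnf113a1 fell by 1.03 ± 0.20, Rnf123, which encodes a ligase for a cell cycle inhibitor, by 0.81 ± 0.16, and Rnf24 by 0.42 ± 0.09 (SE; limma adjusted p from 0.0296 to 0.0432). All 3 calls were lost without T1, T2, T3, W2 or W3, and that of Rnf24 also without W1 (up to 0.146). A second probe set of Rnf24 differed by 0.084.

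Of 13 syntaxin genes other than Stx11, 0 passed, 3 were higher and 0 lower at an unadjusted p under 0.05 (limma), and the median difference was 0.14. Their differences ran from -0.15 to 0.39, with Stx16 of the Golgi at the upper end (limma adjusted p = 0.0670). Of 13 partners of syntaxins in fusion 0 passed, with 2 above 0 at an unadjusted p under 0.05. The nearest to the threshold was Stxbp2, whose product binds Stx11 in lymphocytes, with 7.44, 7.63 and 7.47 in transgenic against 6.99, 7.22 and 7.16 in wild-type lenses (difference 0.39 ± 0.10, SE; limma adjusted p = 0.0694). Its other probe sets differed by -0.26 and 0.24, so they did not share a direction. Unc13d, which primes granules for release, had a difference of 0.31 (limma adjusted p = 0.143). Of 23 other myosin genes 0 passed, 1 had an unadjusted p under 0.05, and the differences ran from -0.26 to 0.31. The closest relative of Myo7b, the hearing gene Myo7a, had 5.33, 5.49 and 5.19 in transgenic against 5.31, 5.32 and 5.33 in wild-type lenses, and the groups overlapped. Both of its means lay under the olfactory receptor gauge, so these values cannot show whether Myo7a changed. Of the 23 myosin genes, 9 lay at or below the gauge in both groups.

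Among 14 genes of the brush border and stereocilia complexes, which link class VII myosins to cadherins, Cdh23 fell by 0.64 ± 0.11 (SE; limma adjusted p = 0.0224), while the remaining 13 missed the threshold. That call was lost without T1, T2, T3, W2 or W3 (up to 0.0766), and a second probe set differed by -0.068. Of the 14, 9 lay at or below the olfactory receptor gauge in both groups. Of the 3 other LRRTM genes, Lrrtm3 fell by 0.45 ± 0.10 (SE; limma adjusted p = 0.0425), and its wild-type mean of 4.98 lay under the olfactory receptor gauge. The call was lost with any 1 array left out (up to 0.145), and its other probe sets differed by 0.046, -0.13 and 0.070. Lrrtm3 was also the only call among 16 synaptic adhesion partners of the family, which had a median of -0.17. Of the 16, 6 were lower and 1 higher at an unadjusted p under 0.05 (limma). The neurexin gene Nrxn3, whose product LRRTM proteins bind, had 8.44, 8.53 and 8.21 in transgenic against 7.74, 8.02 and 7.89 in wild-type lenses (difference 0.51 ± 0.11, SE; limma adjusted p = 0.0514), just over the threshold.

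Of 4 other CaBP genes 0 passed, with 1 above and 1 below 0 at an unadjusted p under 0.05 (limma). Cabp1, a regulator of calcium channels in neurons, had a difference of -0.52 (limma adjusted p = 0.101) and Cabp7 one of 0.40. Of the 4, 3 lay at or below the olfactory receptor gauge in both groups, Cabp1 and Cabp7 among them. Among 14 further calcium-binding genes and calcium channels, S100a1, a calcium sensor gene, rose by 1.15 ± 0.09 (SE; limma adjusted p = 0.000738), with any 1 array left out too, and its second probe set rose by 0.65. Of 3 other divergent kinase genes 0 passed and 1 had an unadjusted p under 0.05 (limma). Dipk1b had a difference of -0.43 (limma adjusted p = 0.0973), Dipk2b one of 0.030 and Dipk1a one of 0.017. Dipk2b lay under the olfactory receptor gauge in both groups, with means of 3.65 in transgenic and 3.62 in wild-type lenses. Of 9 secretory pathway kinases 0 passed, with 2 below 0 at an unadjusted p under 0.05, and Fam20a, at -0.43, was nearest (limma adjusted p = 0.0504).

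For Rnf180, 14 membrane-anchored ligases, conjugating enzymes and described targets held 1 rise and 1 fall. Ube2j1, a conjugating enzyme gene of the endoplasmic reticulum, fell by 0.53 ± 0.09 (SE; limma adjusted p = 0.0166), and a second probe set differed by -0.013. Marchf6, a ligase gene of the same membrane, rose by 0.51 ± 0.10 (SE; limma adjusted p = 0.0334), and a second probe set differed by -0.27. The call of Ube2j1 was lost without T2, W2 or W3 (up to 0.0772) and that of Marchf6 with any 1 array left out (up to 0.124). Maoa and Zic2, whose products Rnf180 is known to mark for degradation in mouse, had differences of 0.23 and -0.036 and did not pass. For Ermap, 0 of 4 butyrophilin genes passed and 1 had an unadjusted p under 0.05 (limma), and Btnl2 was nearest, at 0.35 (limma adjusted p = 0.0537). All 4 lay at or below the olfactory receptor gauge in both groups, as did 8 of the 15 red cell surface genes that follow. Of 15 red cell surface genes, Gypc, encoding a glycophorin, fell by 0.59 ± 0.11 (SE; limma adjusted p = 0.0255), a call lost without T2, T3, W2 or W3 (up to 0.0971).

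**Figure D3:**
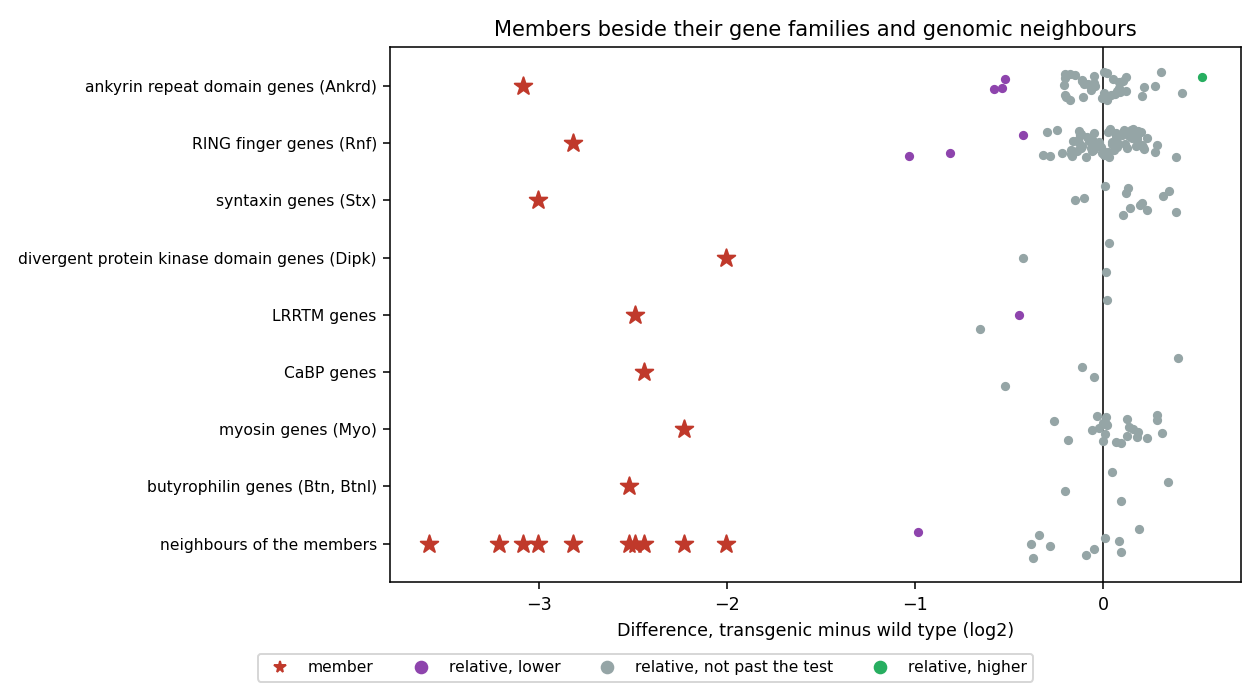
Difference in log2 signal, transgenic minus wild type, with 1 row for each gene family and 1 for genomic neighbours. Red stars mark the 10 genes, purple, grey and green points the relatives that were lower, did not pass or were higher, and no relative lies below -1.03 while all stars lie at or below -2.01. The 10 genes were chosen for this fall and the relatives were not, so nothing is read from that gap.

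Genomic neighbours were compared to see whether measured genes next to the members moved with them. Of the nearest 2 annotated genes on each side of each member in RefSeq order, 40 in all, 11 were measured. Dipk2a, E330034G19Rik and Cabp5 had no measured neighbour, so a shared change was not tested for them. Of the 11, 5 lay at or below the olfactory receptor gauge in both groups, so their values cannot show whether they changed. All measured neighbours of Rnf180, E130119H09Rik and Myo7b were among these 5. Svbp, which stands next to Ermap and encodes a small partner of the tubulin-cleaving vasohibins, had 10.25, 10.26 and 10.20 in transgenic against 11.19, 11.23 and 11.24 in wild-type lenses. The groups were far apart beside their spread, and it fell by 0.98 ± 0.08 (SE; limma adjusted p = 0.000643), also with any 1 array left out. The other 10 neighbours did not pass. Zfp691, on the other side of Ermap, had a difference of 0.19 (limma adjusted p = 0.443). Pla2g7, next to Ankrd66, had 11.75, 11.75 and 11.71 in transgenic against 11.96, 12.17 and 12.22 in wild-type lenses (limma adjusted p = 0.0678). The neighbours of Lrrtm2, the catenin gene Ctnna1 and the chaperone cofactor gene Sil1, had differences of -0.37 and -0.34 (limma adjusted p of 0.0735 and 0.116). The median of the 11 was -0.089, against 0.011 for all genes, and 5 were lower and 0 higher at an unadjusted p under 0.05 (limma).

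Likeness to the 10 genes was measured as Pearson's r over the 6 arrays with their mean scaled profile, among 261 probe sets of other genes that differed by at least 1 log2 unit and reached the median signal in 1 group. These arrays share the genotype contrast, so r is close to 1 or -1 for many probe sets and is given as a description. The 6 most alike genes were Gadd45b, Eif5b, Ceacam10, Hmox1, Map3k5 and Tcp11, all with r of at least 0.998. The growth arrest gene Gadd45b had 8.59, 8.39 and 8.29 in transgenic against 10.42, 10.59 and 10.68 in wild-type lenses. The heme oxygenase gene Hmox1 had 9.53, 9.59 and 9.35 against 11.55, 11.79 and 11.86, and the kinase gene Map3k5 7.28, 7.08 and 7.19 against 8.96, 9.22 and 9.33. The 4 most opposed were S100a1, the stress-induced transcription factor gene Atf3, the hedgehog-binding gene Hhip and Foxe3, with r from -0.995 to -0.992. Atf3 had 5.73, 5.66 and 5.76 in transgenic against 4.59, 4.65 and 4.57 in wild-type lenses.

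**Figure D4:**
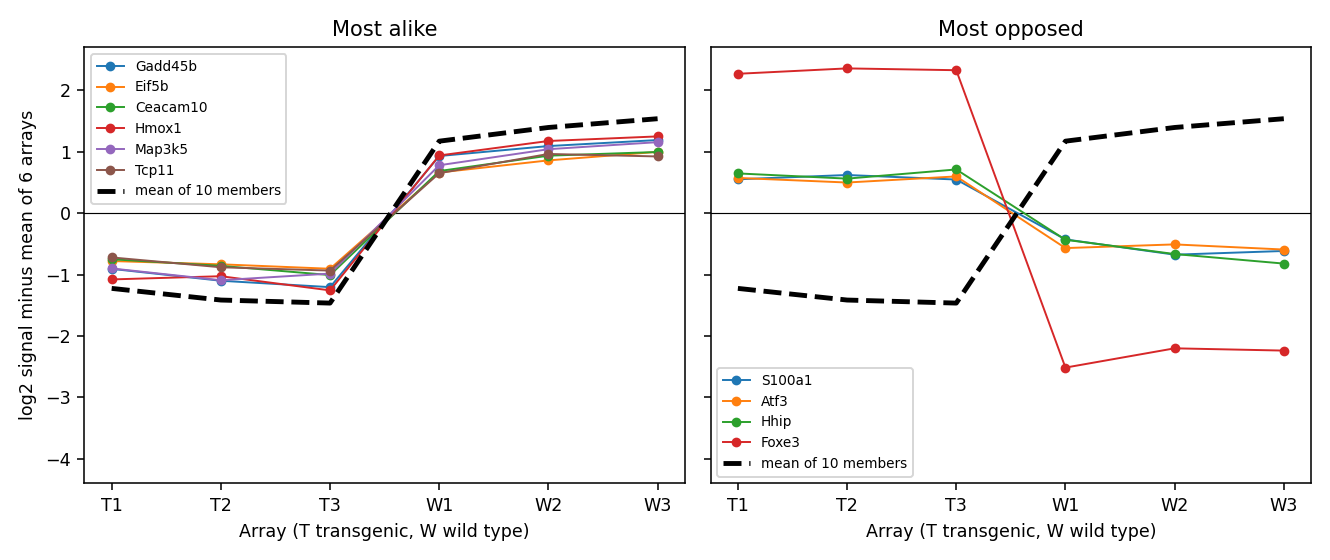
Log2 signal minus the mean of 6 arrays, by array with transgenic left of wild type, for the 6 genes most like the 10 (left) and the 4 most opposed (right), beside the mean of the 10 as a dashed line. Foxe3 has the largest contrast, 13.38 in transgenic and 8.74 in wild-type lenses on average, in the opposite direction to the 10 genes.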

How the data were processed

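RNA from whole lenses was measured on Affymetrix arrays, with groups and replicate numbers taken from sample titles. In the deposited table each probe set has a log2 value for every array. The log2 scale was read from the range of values, 2.68 to 14.8, and how the authors summarised and normalised them is not given in the sources. After 64 control probe sets were left out, upper quartiles differed by 0.120, above a limit of 0.1, so arrays were quantile normalised. Gene names came from GEO's annotation of the platform and were brought up to date through RefSeq gene identifiers (GRCm38.p6), which matched 99.4% of the 34945 with 1 symbol. A gene of a list stands by its probe set with the highest mean over 6 arrays. No 2 arrays held the same values.

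All 45037 probe sets were fitted by genotype with limma 3.58.1 (lmFit, eBayes; R 4.3.3, prior degrees of freedom 4.49), with Benjamini-Hochberg adjustment over all of them and a threshold of 0.05. Precision is limited by the number of arrays. The 10 genes, the gene lists, the motifs and the tests were chosen with earlier results of these data known. In each list up to 4 genes past the threshold with the smallest p are named, or up to 2 where none passed, with the closest relatives and partners. The 6 most like and 4 least like genes are named by correlation. Alternatives were the values as deposited, a common median, dim probe sets left out, 1 probe set a gene, trended robust variances, an ordinary test, a replicate block, each array left out and a mean over a gene's probe sets.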

Additional observations from a re-analysis of the deposited data

How the results depend on the processing

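Of 100 recomputed differences of single members, none turned direction, 95 moved by less than the SD of the arrays and 5 by more, all 5 on averaging a gene's probe sets. That average gave -0.99 for Dipk2a, which has a dim probe set that went up, -1.61 for Lrrtm2, -2.16 for Cabp5, -2.17 for Rnf180 and -2.72 for Stx11, and moved the median of the 10 genes to -2.37, against -2.67. With 1 array left out that median ran from -2.77 to -2.61. Whether replicate numbers pair the samples could not be settled, because the correlations were all small. Same-numbered arrays had deviations that correlated at 0.0153, 0.0867 and 0.0280, and differently numbered ones at -0.0594 to 0.0185. T2 and T3 correlated best with the wild-type array of their own number, and T1 with W3. With a replicate block, 230 probe sets were higher and 483 lower, 1 relative or neighbour was higher and 2 lower, and 1 marker was higher. An ordinary test without moderation, which has few degrees of freedom, gave 26 higher and 43 lower over all probe sets, 0 and 1 among relatives, and 1 and 0 among markers. With 1 probe set a gene, where fewer features are tested, 352 were higher and 475 lower. Of 260 measured relatives and neighbours, 3 were higher and 11 lower. The higher count was 1 with a common median, 5 when dim probe sets were dropped and 5 with trended robust variances, under which 8 markers were lower, against 5. With 1 array left out, the counts over all probe sets ran from 131 to 393 higher and from 302 to 858 lower, lowest without W2. Among relatives and neighbours they ran from 1 to 3 higher and from 1 to 12 lower, and among markers from 1 to 3 higher and from 3 to 6 lower. Calls among relatives and neighbours other than those of Svbp and S100a1 were each lost when some single array was left out. Leaving out an array also lowered the counts over all probe sets, so a lost call need not mean that 1 array carried the difference. Transgenic signals at or below the olfactory receptor gauge in 4 of the 10 genes, and just above it in E330034G19Rik and Stx11, limit their folds. The causes of these changes were not tested.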
